A study of Mus musculus with 6 samples.

Results

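miR-146a and miR-146b are paralogous microRNAs (miRNAs) with the same seed, the stretch of bases that pairs with target messages. They were chosen by name: the 2 assays whose miRNA name in the normalized table is miR-146a or miR-146b, out of 104 miRNAs that gave a threshold cycle (Ct) in the series. Real-time PCR of mature miRNAs was run on osteoclasts, the multinucleated cells that resorb bone, sorted magnetically from mouse bone marrow as cells carrying OSCAR and CTR. The compared groups were 3 samples taken 2 weeks after ACLT, an operation that destabilises the knee, and 3 samples taken 2 weeks after a Sham operation. All other labels were shared by the groups, and strain, sex, age and genotype are not stated there. The series text states that RNA of 3 mice per group was pooled in equal amounts. It is not stated whether the samples are single mice or repeated assays of 1 pool, so a p-value here reflects the spread among these samples alone, and that spread may be technical. In bulk RNA, fewer cells of a type and less RNA per cell cannot be told apart.

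miR-146a is known as a feedback brake on NF-kB. Its gene is switched on by NF-kB, and the miRNA represses Traf6, an adaptor, and Irak1, a kinase. Both carry the signal from Toll-like and interleukin-1 receptors to NF-kB. In osteoclast precursors the receptor RANK signals through Traf6 as well, and in human blood cell cultures added miR-146a has been described to restrain osteoclast formation. miR-146b comes from a separate gene and, through the shared seed, is held to repress an overlapping set of messages.

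The mature sequences are shown because they define how far the assays can tell the paralogues apart. Capitals mark the seed, bases 2 to 8 from the 5′ end.
miR-146a: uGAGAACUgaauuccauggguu
miR-146b: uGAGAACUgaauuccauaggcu
The sequences listed by the authors for these assays were equal to miR-146a-5p and miR-146b-5p of RefSeq, each 22 bases long. Their first 17 bases were equal, and 2 of 22 bases differed, G18A and U21C (the base of miR-146a, the position from the 5′ end, the base of miR-146b). Only these 2 of the 707 listed assays with a sequence held this seed at bases 2 to 8. Every other listed sequence of the same length differed from both by at least 10 bases. The primers are not known from the sources used here, and whether the assays share signal was not tested.

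The hairpins are shown to place the measured arm, in capitals, within its precursor (RefSeq, build GRCm38.p6).
miR-146a hairpin: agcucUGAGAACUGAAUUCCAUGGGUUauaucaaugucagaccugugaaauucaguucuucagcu
miR-146b hairpin: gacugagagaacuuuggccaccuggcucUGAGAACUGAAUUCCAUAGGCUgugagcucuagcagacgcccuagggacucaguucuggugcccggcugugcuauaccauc
The miR-146a hairpin, gene Mir146, lies at chr11:43374397-43374461 on the minus strand and overlaps no other gene of the RefSeq table. The miR-146b hairpin, gene Mir146b, lies at chr19:46342762-46342870 on the plus strand, within the span of the lncRNA gene Gm36493. In both hairpins the measured arm is the 5′ arm. The opposite arm of miR-146b, listed as miR-146b*, had a Ct in 0 of 6 samples.

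A lower Ct is more RNA, and 1 cycle stands for 2 times the RNA where amplification is fully efficient. Levels below are minus ΔCt, where ΔCt is the Ct of the assay minus that of the U6 well of the same plate, so that a higher level is more RNA on a log2 scale. Single miRNA Cts lay between 19.7 and 37.3, and limma tested together the 100 miRNAs that had a deposited ΔCt and whose Ct stayed under 35 throughout ACLT or throughout Sham. miR-200a, which had Cts but no ΔCt, was left out. Sample 3 of a group was tied to sample 2 in most wells: its Ct was that of sample 2 times 0.99, or divided by it, in 77 of 110 wells in ACLT, and likewise with 0.97843 in 82 of 110 wells in Sham (within 0.002 cycles). miR-146a was on the factor in Sham and off it in ACLT, where the Ct of sample 3 was 0.970 times that of sample 2. miR-146b was on the factor in both groups. So the Sham values of miR-146a hold 2 values free of the tie and the values of miR-146b hold 2 in each group.

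Ct values also followed the order of the wells. Read row by row over both plates, the longest series of miRNA wells in which each had a higher Ct than the one before, skipping wells where needed, held 49 of 104 wells in ACLT sample 1 and 41 in Sham sample 1. It held 29 to 32 in the other 4 samples, while the longest falling series held 9 to 11. Read column by column, the longest rising series held 21 to 23. miR-146b lay on a longest series in ACLT sample 1, and miR-146a on one in Sham sample 1. In ACLT sample 1 the wells of miR-143, miR-144, miR-146b and miR-148b, in plate order, had Cts of 29.34, 29.37, 29.45 and 29.72. Interleaved with them, miR-142-5p, miR-146a and miR-150 had 25.59, 25.89 and 26.19. The wells of miR-145 and miR-148a, in the same stretch, had 22.28 and 21.84 and lay in neither rising set. The part of this order and of the tie in the results below was not tested.

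**Figure D1:**
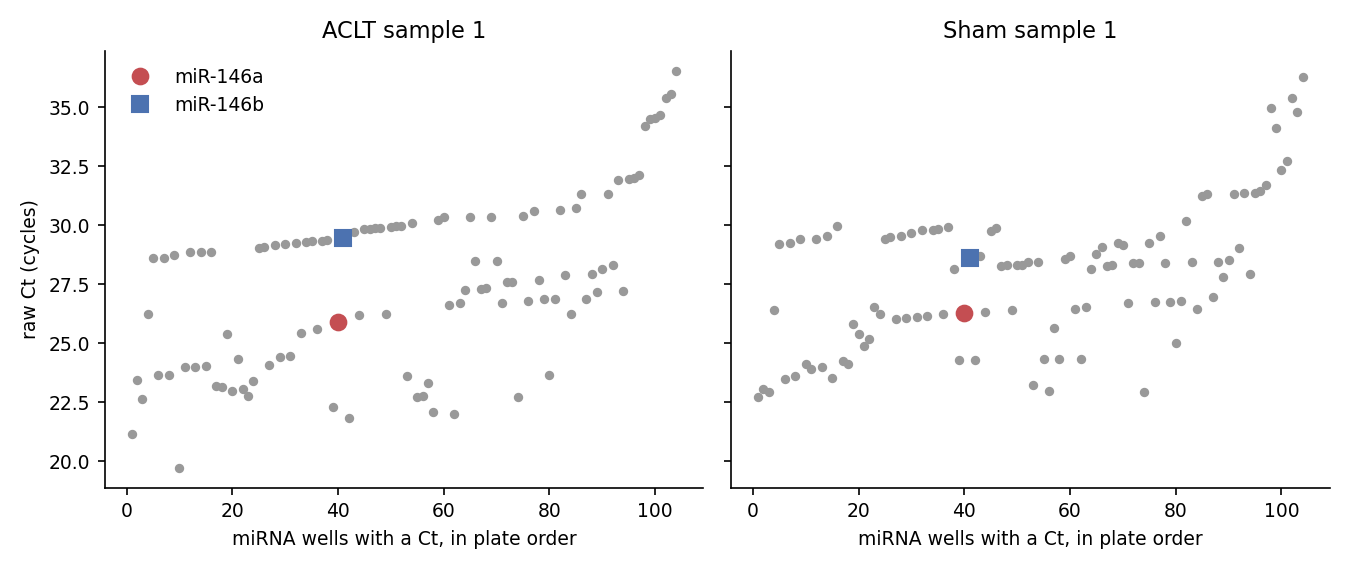
Raw Ct in cycles (y) of the 104 miRNA wells with a Ct, in plate order (x), in ACLT sample 1 and Sham sample 1, with miR-146a and miR-146b marked. Many wells form bands that rise along the plate, 49 wells in the longest rising series on the left and 41 on the right, and both paralogues sit in such bands.

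Comparing ACLT with Sham addresses how the paralogues stand in osteoclasts once the knee has been made unstable. For miR-146a the raw Ct was lower in every ACLT sample than in any Sham sample. It was 25.89, 25.38 and 24.63 in ACLT samples 1, 2 and 3, and 26.27, 26.56 and 25.98 in Sham samples 1, 2 and 3. The groups lay 0.089 cycles apart at their nearest values, against a range of 1.27 cycles within ACLT. The mean difference was -0.97 cycles (exact permutation p = 0.1, two-sided, the smallest that 3 against 3 can give). Raw Cts of the groups did not overlap for 39.0% of the 100 tested miRNAs, with more RNA in ACLT for 27.0%, so this separation was common on the array.

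Relative to U6 the groups of miR-146a overlapped, as they did for all but 26.0% of the tested miRNAs. Its level was 0.04, 0.75 and 2.24 in the ACLT samples and -0.92, 0.35 and 0.47 in the Sham samples, so ACLT sample 1 fell below Sham samples 2 and 3. Mean levels were 1.01 ± 1.12 for ACLT and -0.03 ± 0.77 for Sham (SD, n = 3 each). The log2 change was 1.04 ± 0.64 (SE), with a 95% interval from -0.21 to 2.30 and an adjusted p = 0.296 by limma. miR-146a thus did not pass the threshold of 0.05, as 20.0% of the tested miRNAs did, and the interval holds both no change and a rise of more than 2 on the log2 scale. Because limma pooled the spread of all miRNAs over 400 degrees of freedom, the interval treats wells of a sample as independent. Its width follows the spread over the array rather than that of miR-146a itself. An exact permutation test on the levels of miR-146a relative to U6 gave p = 0.4 (two-sided). The authors' deposited table gives a ratio of 2.06 for ACLT over Sham, which comes from the same ΔCt values.

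The size of the miR-146a change rested on single samples. Without ACLT sample 3 it was 0.43 and without Sham sample 1 it was 0.60, whereas without ACLT sample 1 it was 1.53. ACLT sample 3 had the lowest Ct of miR-146a and also, among the ACLT samples, the highest U6 Ct of plate 1, 26.87 against 25.94 and 26.13. Its SD over the ACLT samples was the fourth highest among the 100 tested miRNAs (position 4).

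miR-146b had a higher Ct than miR-146a in every sample and, relative to U6, a smaller absolute change. With median centring, reference 2, reference 3 or the mean of the references its absolute change was the larger of the pair (below). Its raw Ct was 29.45, 30.24 and 30.55 in the ACLT samples and 28.63, 30.42 and 29.77 in the Sham samples, with the groups overlapping. Its level relative to U6 was -3.52, -4.11 and -3.68 in ACLT and -3.28, -3.52 and -3.31 in Sham. ACLT sample 1 lay just above Sham sample 2, and the other 2 ACLT samples lay below all Sham samples. The log2 change was -0.40 ± 0.59 (SE), with a 95% interval from -1.56 to 0.77 and an adjusted p = 0.673 by limma, so miR-146b did not pass either. This interval too follows the pooled spread of all miRNAs. The SD of the levels of miR-146b was 0.30 in ACLT and 0.13 in Sham. An exact permutation test on these levels gave p = 0.2 (two-sided). The authors' deposited table gives a ratio of 0.760. Neither paralogue is thus among the 13.0% of tested miRNAs called higher or the 7.00% called lower in ACLT.

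**Figure D2:**
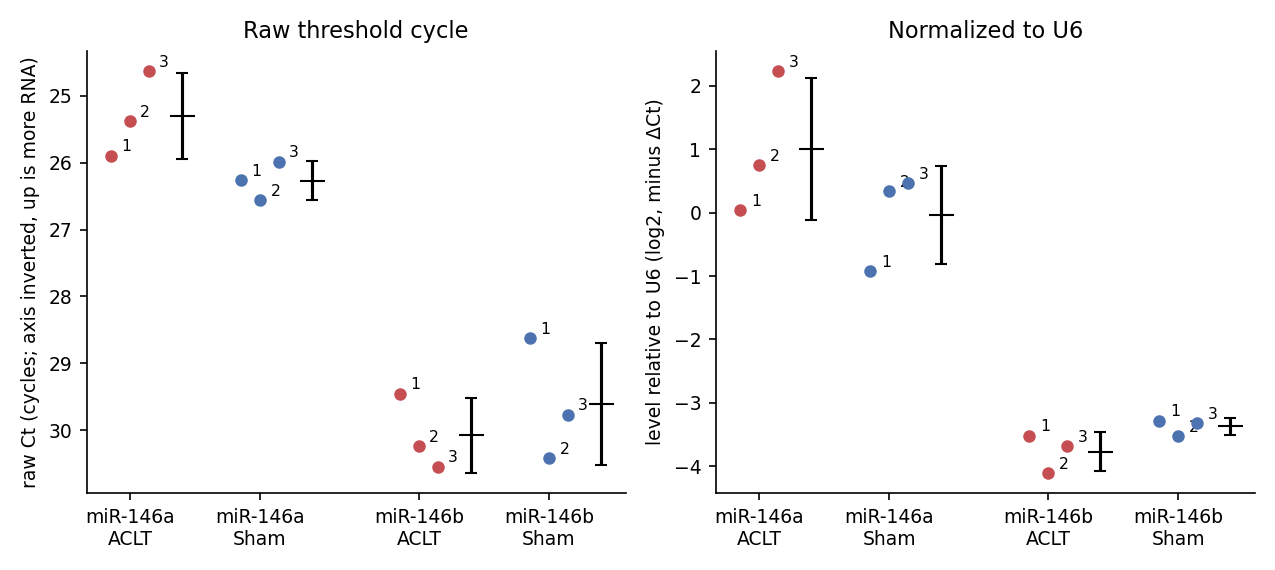
Left, raw Ct in cycles on an inverted axis; right, level relative to U6 on a log2 scale, for miR-146a and miR-146b in ACLT (red) and Sham (blue). Points are samples 1 to 3, and the bars give mean ± SD (n = 3). The 3 ACLT points of miR-146a lie above all Sham points on the left, at 25.89 cycles and lower, and overlap them on the right.

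Normalization acted in opposite ways on the spread of the paralogues. In Sham the SD of miR-146b was 0.91 cycles as raw Ct and 0.13 as a level relative to U6, while for miR-146a it was 0.29 cycles as raw Ct and 0.77 as a level. The U6 Ct on their plate was 25.35, 26.90 and 26.45 in the Sham samples, lowest in the sample where the Ct of miR-146b was lowest and highest where it was highest. Only 2 of the 100 tested miRNAs had a smaller SD in Sham than miR-146b (position 98 from the highest). Since its value in sample 3 is tied to that in sample 2, this SD counts a dependent value.

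The paralogues were next compared within each sample. Both wells lie on plate 1, next to each other, so the reference well cancels in their difference and only the raw Cts enter. miR-146a exceeded miR-146b by 3.56, 4.86 and 5.92 on the log2 scale in the ACLT samples and by 2.36, 3.87 and 3.78 in the Sham samples. miR-146a was the higher of the pair in 6 of 6 samples, and ACLT sample 1 fell between the Sham values. As ratios these differences are 11.8, 29.0 and 60.5 in ACLT and 5.14, 14.6 and 13.8 in Sham. A ratio between assays equals a ratio of RNA only if both amplify with the same efficiency, and the efficiencies are not known from the sources used here.

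The mean difference was 4.78 ± 1.18 for ACLT and 3.34 ± 0.85 for Sham (SD, n = 3 each), or geometric mean ratios of 27.4 and 10.1. The ratio of miR-146a to miR-146b was therefore 2.72-fold higher in ACLT, a change of 1.44 on the log2 scale that was not told from the spread between samples (exact permutation p = 0.3, two-sided, smallest possible 0.1). It ranged from 0.87 without ACLT sample 3 to 2.05 without ACLT sample 1, and was 0.95 without Sham sample 1. With samples 2 and 3 merged into their mean it was 1.38, and with sample 3 dropped from each group it was 1.09. Quantile normalization, which gives all samples 1 common set of ranked values, turned it to -0.12.

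Other miRNAs on the array with a shared seed show how common such a shift between relatives was. The tested miRNAs formed 62 pairs with equal bases 2 to 8, in 12 seed families. In absolute size the change of 1.44 was the sixth among them (position 6), against a median of 0.69 and a highest value of 3.97 for miR-148a and miR-152. Among the 7 families with just 2 tested members it was the largest, and the next, miR-192 minus miR-215, changed by -1.33. The groups did not overlap for 24.2% of the 62 pairs, while those of miR-146a and miR-146b did. The members of a family enter several pairs, and tied wells enter most of them, so these positions are a description.

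**Figure D3:**
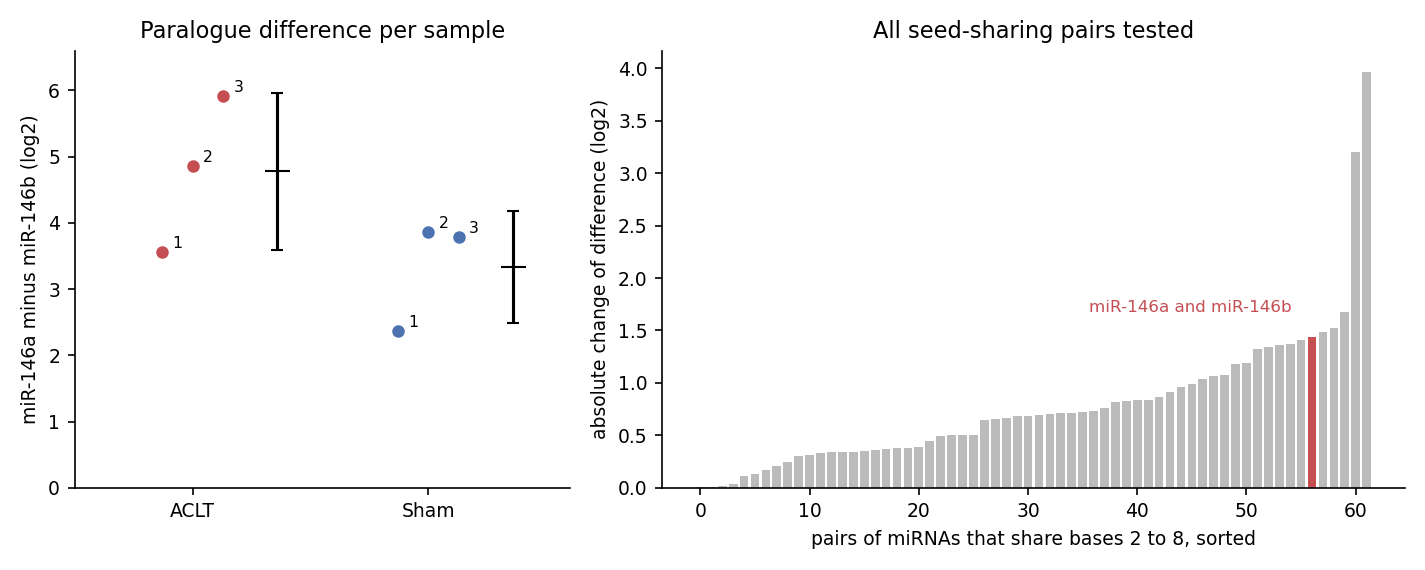
Left, miR-146a minus miR-146b (log2) in samples 1 to 3 of ACLT and Sham, with mean ± SD (n = 3), from 2.36 in Sham sample 1 to 5.92 in ACLT sample 3. Right, the absolute change of the difference, ACLT minus Sham (log2), for each of the 62 pairs of tested miRNAs that share bases 2 to 8, with the miR-146 pair in red at 1.44.

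The direction of miR-146a, but not that of miR-146b, depended on the reference RNA. With the unnamed reference 3, whose own Ct on plate 1 was 28.3 ± 0.79 for ACLT and 31.0 ± 0.53 for Sham (SD, n = 3 each), miR-146a changed by -1.69 (limma adjusted p = 0.0257) and miR-146b by -3.13 (limma adjusted p = 3.1e-05). With this reference 87.0% of the tested miRNAs were called lower, so both calls are shared by most of the array. With the mean of the 3 references miR-146a stood at -0.08 and miR-146b was lower by a called -1.52 (limma adjusted p = 0.0315), beside 34.0% of miRNAs called lower. Centred on the median tested miRNA, the changes were 0.60 and -0.84, and with reference 2 they were 0.40 and -1.04, none of which passed. After quantile normalization miR-146a stood at -0.27 and miR-146b at -0.15. The change of miR-146b was below 0 in all 20 alternatives run. That of miR-146a was above 0 in 17 of 20, the exceptions being reference 3, the mean of the references and quantile normalization. The Ct limits, variance models and replicate block cannot move either change, so these counts overstate how far the sign was tried. Among the normalizers, raw Ct, median centring and reference 2 kept miR-146a above 0.

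By mean level over the 6 samples miR-146a was at position 27 of 100 (0.49) and miR-146b at position 84 (-3.57). Next to miR-146a stood miR-29c (0.51) and miR-150 (0.47), closer to it than its SD of 1.03 over 6 samples. Next to miR-146b stood miR-144 (-3.46), within its SD of 0.30, and miR-203 (-3.73), also within it.

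The miRNAs whose levels ran most like those of the paralogues were other than their partner. Over the 6 samples, which share the U6 value and the tie, Pearson's r with miR-146a was 0.94 for each of miR-297a, miR-183 and miR-150, and with miR-146b 0.93 for miR-144, 0.92 for miR-184 and 0.76 for miR-99b*. Relative to the median tested miRNA, r with miR-146a was lower, 0.86 for miR-297a, 0.90 for miR-183 and 0.89 for miR-150. On that scale r with miR-146b was 0.996 for miR-144, 0.99 for miR-184 and 0.70 for miR-99b*. Between the paralogues r was -0.50. In raw Ct some of these lay near the paralogue and others did not. miR-297a, the first for miR-146a, lay 1.42 to 2.55 cycles above it. miR-99b* lay 2.88 to 5.93 cycles above miR-146b. Its Cts ran from 32.3 to 36.2, and it met the limit of 35 throughout Sham but not throughout ACLT. The Ct of miR-144 minus that of miR-146b was -0.016 cycles in ACLT samples 2 and 3 and -0.024 and -0.023 in Sham samples 2 and 3, but -0.487 in Sham sample 1. miR-150 lay 0.014 cycles above miR-146a in Sham samples 2 and 3 and 0.074 above it in Sham sample 1. In ACLT it differed from miR-146a by 0.295, -0.654 and 0.35. Among the wells with a Ct, miR-144 precedes miR-146b by 3 and miR-150 follows miR-146a by 4.

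Other miRNAs tied to NF-kB and Toll-like receptor signalling were read from a list of 23, of which 16 had no Ct in any sample. Over the array 104 miRNAs had a Ct, beside 707 listed assays with a sequence, so a missing Ct was common. Wells with a Ct in only some samples numbered 0. Whether a miRNA without a Ct was absent from the cells was not tested. The 16 include miR-155, induced in macrophages by Toll-like receptor signals, miR-9, miR-125b-5p and miR-223, a miRNA of myeloid cells. Of the 7 tested, 1 was called higher in ACLT, 2 were called lower and 4 did not pass, beside 13.0% called higher and 7.00% called lower over all 100 tested. miR-21, which represses Pdcd4, had levels of 6.22, 5.84 and 5.64 in ACLT and 1.22, 1.79 and 1.29 in Sham, far apart. miR-222, known for repressing the cell cycle inhibitor p27 in human cells, had -4.41, -4.49 and -3.45 against -3.42, -2.11 and -1.93, with the groups just apart. miR-203, an epidermal miRNA, changed by -1.56 and miR-222 by -1.63 (limma adjusted p = 0.0465 and 0.0352), and with samples 2 and 3 merged into their mean only miR-21 of the list still passed. With reference 2 as the normalizer 0 of the 7 passed, miR-21 included, as did 0 of all 100 by limma (2 at an unadjusted p under 0.05). On plate 1 the Ct of reference 2 had an SD of 1.44 in ACLT and 1.13 in Sham, against 0.49 and 0.80 for U6. That spread enters every level taken relative to reference 2. miR-21 was again alone in passing with the replicate number as a block and when leaving out ACLT sample 1, ACLT sample 2, Sham sample 2 or Sham sample 3. miR-181a, a regulator of T-cell receptor sensitivity, stood at -1.32, let-7e at 1.14, its cluster neighbour miR-99b at 0.58 and let-7i, described to repress TLR4 in human cells, at 0.10. The median change of the 7 was 0.10, against 0.24 over all 100 tested, and 6 of the 7, all but miR-21, were on the factor in both groups.

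**Figure D4:**
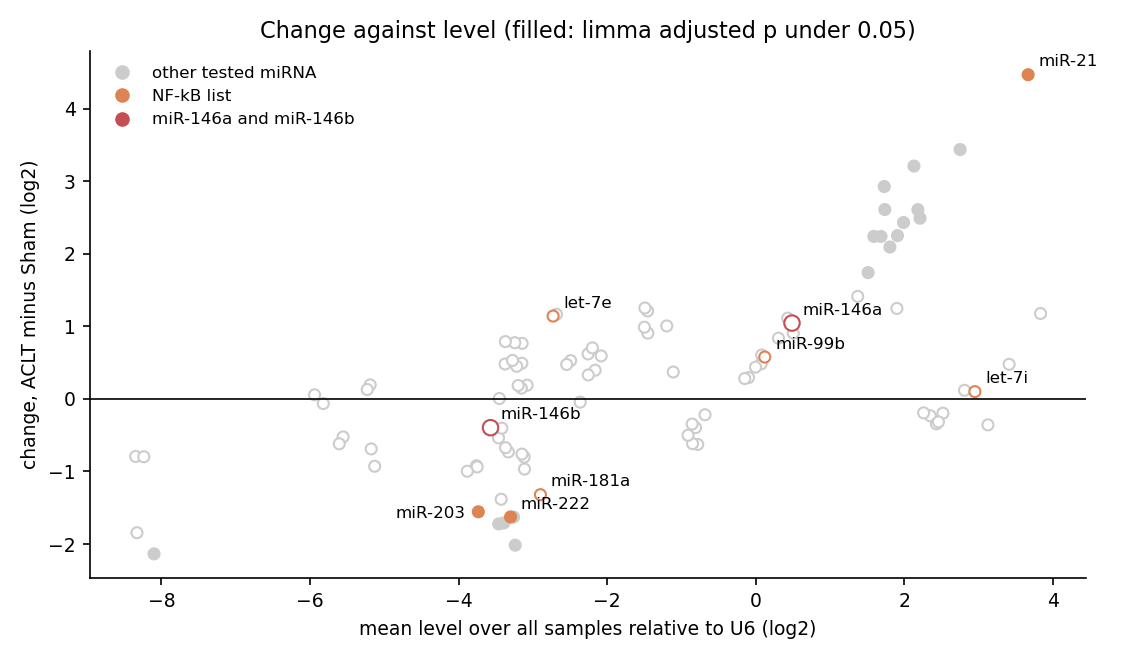
Change, ACLT minus Sham (log2), against mean level relative to U6 (log2) for the 100 tested miRNAs, filled where the limma adjusted p was under 0.05. miR-146a at 1.04 and miR-146b at -0.40 are open circles, while miR-21, miR-203 and miR-222 of the NF-kB list are filled.

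OSCAR and CTR are proteins and could not be checked on a miRNA array. Of 7 myeloid miRNAs 4 were tested and 0 passed (changes from -0.80 to 0.28), beside 20.0% of all 100 tested called in either direction. The myeloid miRNAs miR-223, miR-142-3p and miR-27a had no Ct. Summed levels here add the RNA of the tested members before log2 is taken, so the highest member weighs most. The summed myeloid level (log2) ran from 2.40 to 3.94 in ACLT and from 1.73 to 3.59 in Sham. Lymphoid miRNAs, of interest here because lymphocytes also carry miR-146a, had 0 of 3 past the threshold, with miR-150 at 1.08, miR-181d at -0.40 and miR-181a at -1.32, and miR-155 and miR-181b had no Ct. Of the tested lymphoid miRNAs miR-150 had the highest level in each sample, so the sum follows it most. The summed lymphoid level (log2) ran from -0.05 to 1.99 in ACLT and from -0.39 to 0.82 in Sham. Of 5 tested mesenchymal miRNAs 3 (miR-145, miR-199a-3p and miR-214) were called higher, beside 13.0% of all tested, while miR-143 stood at -0.67 and miR-152 at -0.76 without passing. The summed mesenchymal level was 5.23 to 5.69 in ACLT against 2.29 to 2.84 in Sham. Of 3 erythroid miRNAs 0 were called, with miR-451 at 1.21, miR-144 at -0.54 and miR-486 at -0.62. Their summed level, with miR-451 the highest member in each sample, was -0.95 to -0.01 in ACLT against -1.61 to -0.95 in Sham. Beside the share of 20.0%, a count of 0 among 3 or 4 does not show that the miRNAs of a cell type were unchanged. The one endothelial miRNA with a Ct, miR-126-3p, which platelets carry too, stood at 0.29 without passing. The part of such cells in the levels of miR-146a and miR-146b was not tested.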

How the data were processed

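Trizol extracts were copied to cDNA with the QuantiMir kit and run for 40 cycles with SYBR Green on a ViiA7, per the labels' protocols. The authors deposited the raw Ct per well, ΔCt (log2 scale) and a ratio of ACLT to Sham. ΔCt equalled Ct minus that of reference 1, the U6 well per the file headers, within 1.78e-15. How thresholds and baselines were set is not known from the sources used here. ΔCt was given for 103 miRNAs, and 2 emptied lines of that table were not analysed here. A repeated line of a well was dropped where it held no Ct. qPCR has no read depth, so the number of samples limits precision.

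Levels were fitted with limma 3.58.1 in R 4.3.3 (lmFit, eBayes with a trend, two-sided), Benjamini-Hochberg adjusted over the 100 tested miRNAs. The code was also run on simulated independent values with a common spread and changes larger than those of the paralogues relative to U6. Those values lacked the tie between samples, so they give no error rate for these data. The difference between the paralogues was compared by an exact permutation test over samples. Alternatives were other normalizers, Ct limits, variance models, a replicate block, leaving out each sample, and samples 2 and 3 averaged or sample 3 dropped. Named miRNAs are the paralogues, the references, tested members of the NF-kB list, the 3 highest r per paralogue and the neighbours in level; others were named after their values were seen, as were the comparison with other seed-sharing pairs and the reading by well order. The members, lists and tests were chosen with earlier results of these data known. Other steps used scipy 1.17.1 and pandas 2.3.3 in Python 3.11.15.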

Additional observations from a re-analysis of the deposited data

How the results depend on the processing

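miR-146a changed sign with quantile normalization (-0.27), reference 3 (-1.69) and the mean of the references (-0.081), and the paralogue difference with quantile normalization (-0.12). miR-146a (-1.69) and miR-146b (-3.13) gained a call with reference 3, and miR-146b with the mean of the references (-1.52). Leaving out each sample gave 0.43 to 1.53 for miR-146a, -0.52 to -0.23 for miR-146b (-0.23 without ACLT sample 2) and 0.87 to 2.05 for their difference, with no call gained. With the replicate number as a block, miR-146a stood at 1.04 (limma adjusted p = 0.236), miR-146b at -0.40 and the difference at 1.44 (exact sign-flip p = 0.25, the smallest possible). Deviations of same-numbered samples correlated at 0.24, 0.06 and 0.07, and those of samples with unlike numbers at -0.22 to 0.22. With sample 3 tied to sample 2 in most wells, these values cannot decide whether the numbers pair the samples. Median centring moved the 20 called miRNAs to 36, reference 2 to 0 (2 at an unadjusted limma p under 0.05), reference 3 to 88 and the mean of the references to 40. Averaging samples 2 and 3 left 11, dropping sample 3 left 3, and leaving out 1 sample gave 13 to 30. The 3 called of the NF-kB list became 5 on raw Ct and 5 after quantile normalization, beside 30 and 25 of all 100 tested. The count became 0 with reference 2 and 7 with reference 3, where 87.0% of all 100 were called lower. It became 1 with the replicate block, beside 14 of all 100 tested. It was 1 after averaging samples 2 and 3, 1 after dropping sample 3, and 1 to 4 with 1 sample left out. Why these values moved was not tested.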

Other observations

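The longest rising series of miRNA wells in plate order held 49, 31 and 30 of 104 wells in ACLT samples 1, 2 and 3 and 41, 29 and 32 in Sham samples 1, 2 and 3. Through the well of miR-146a the longest such series held 44, 27 and 26 wells in ACLT and 41, 29 and 29 in Sham. Through that of miR-146b it held 49, 31 and 30 in ACLT and 35, 26 and 30 in Sham. miR-146b thus lay on a longest series in every ACLT sample, and miR-146a in Sham samples 1 and 2. These are values with no test of their cause.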
